A study of Mus musculus with 6 samples.

Results

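The genes described here sense, move and export cholesterol. They were given as a list of 9 symbols: the transcription factors Srebf1 and Srebf2, their escort Scap and its retention partner Insig1, the sterol carrier Stard4, the lysosomal exporter Npc1, the efflux pumps Abca1 and Abcg1, and the oxysterol receptor Nr1h2. Every probe set annotated with 1 of these symbols and no other was taken. This gave 11 probe sets of 7 genes, of 12393 genes named on the array. Insig1 and Nr1h2 were not analysed here. Of the 11 probe sets, 10 were bright enough to be tested, and they covered all 7 genes.

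Transcripts were measured in mouse multiple myeloma cells, labelled as malignant plasma cells from bone marrow, on 1-colour Affymetrix arrays. Both groups were kept for 12 h in medium without serum, 3 arrays as the control without IGF-1 and 3 arrays with 100 ng/ml IGF-1, insulin-like growth factor 1, a growth and survival factor for these cells. The labels name no cell line, mouse strain or age, and do not say whether the 3 arrays of a group came from separate cultures, so the p-values rest on array-to-array spread that may be technical. The comparison asks which of these transcripts IGF-1 raised or lowered.

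Cells keep membrane cholesterol steady with a pair of opposed programmes. When sterol in the endoplasmic reticulum is low, Scap carries the SREBP precursors to the Golgi, where proteases free a fragment that enters the nucleus and switches on genes of sterol synthesis and uptake. When sterol is plentiful, Insig proteins hold Scap back, while oxysterols activate the LXR receptors, which switch on the efflux pumps Abca1 and Abcg1. SREBP activity is set by cleavage as well as by transcript level, and the arrays measure the transcript alone.

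The promoter windows of 3 genes are shown because the results turn on Srebf2 against Srebf1 on the sensing side and on Abca1 on the efflux side. They come from RefSeq (GRCm38.p6), reach from 250 bases before to 50 bases after an annotated start, and are written along the gene's strand. Capitals mark matches, on either strand, to the NF-Y box CCAAT, to the E-box CACGTG, or to TCACNCCA, the first 8 letters of the sterol regulatory element searched here, TCACNCCAC. The shorter form was added after these windows had been read. Srebf2 lies at chr15:82147019-82147318 on the plus strand, and the Srebf1 window is the most downstream of its 3 annotated starts, chr11:60210422-60210721 on the minus strand. The Abca1 window is chr4:53159846-53160145, minus strand.
Srebf2: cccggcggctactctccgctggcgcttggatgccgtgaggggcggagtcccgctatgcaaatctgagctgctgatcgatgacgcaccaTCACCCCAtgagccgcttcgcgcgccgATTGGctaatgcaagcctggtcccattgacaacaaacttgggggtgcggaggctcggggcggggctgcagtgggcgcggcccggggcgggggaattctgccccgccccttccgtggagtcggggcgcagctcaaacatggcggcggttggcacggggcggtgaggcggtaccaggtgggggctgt
Srebf1: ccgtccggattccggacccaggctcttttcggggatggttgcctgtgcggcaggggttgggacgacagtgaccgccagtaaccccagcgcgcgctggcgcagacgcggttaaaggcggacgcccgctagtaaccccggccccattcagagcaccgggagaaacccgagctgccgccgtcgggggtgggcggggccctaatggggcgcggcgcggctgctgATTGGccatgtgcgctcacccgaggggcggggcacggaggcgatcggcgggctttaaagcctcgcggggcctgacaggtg
Abca1: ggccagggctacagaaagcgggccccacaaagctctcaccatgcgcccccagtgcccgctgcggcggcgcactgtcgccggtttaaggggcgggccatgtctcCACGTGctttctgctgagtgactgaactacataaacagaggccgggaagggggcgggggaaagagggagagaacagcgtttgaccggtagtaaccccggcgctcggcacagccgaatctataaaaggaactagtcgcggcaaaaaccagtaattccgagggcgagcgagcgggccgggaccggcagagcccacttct

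In the Srebf2 window TCACNCCA was found at -162 to -155 and CCAAT, on the opposite strand, at -135 to -131, counted from the start. Among all 32851 windows of this length, 4.36% held TCACNCCA and 37.4% held CCAAT. TCACNCCAC, which 1.24% of all windows held, was in none of the 9 windows of the 6 listed genes that matched (Srebf1, Srebf2, Scap, Insig1, Abca1 and Nr1h2). The 3 Srebf1 windows held no TCACNCCA either. Forms with mismatches were not searched, so this does not show that these windows lack a sterol regulatory element. As the shorter form was added after the windows had been read, it tests no difference between Srebf2 and Srebf1. The Abca1 window held CACGTG, which 7.15% of windows held. It held no pair of AGGTCA copies 4 bases apart with at most 1 mismatch in each, the form of LXR element searched (1.75% of windows). Pairs with more mismatches were not searched, so this does not show that the window lacks an LXR element. GGGCGG, the GC box, occurred in all 3 windows shown and in 35.7% of all windows. A match is a description of letters and not a site of binding.

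Srebf2, which encodes the SREBP that mainly drives sterol synthesis and lipoprotein uptake, was the 1 member that rose with IGF-1. Its brighter probe set, 1426744_at, read 576, 608 and 608 in the control arrays and 1240, 1019 and 964 in the IGF-1 arrays. The lowest IGF-1 array stood well above the highest control array, and the 3 control arrays lay close together. The mean was 597 ± 18.2 in control and 1075 ± 146 with IGF-1 (SD, n = 3), and the log2 difference was 0.82 ± 0.11 (SE, adjusted p = 0.0012). Here and below, differences are of log2(signal + 15.57), IGF-1 minus control, which understates changes of dim probe sets.

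The second Srebf2 probe set, 1452174_at, read 202, 142 and 145 in control and 268, 293 and 347 with IGF-1. Again the groups did not overlap, and the difference of 0.84 ± 0.15 (adjusted p = 0.0052) was close in size to that of the brighter probe set. IGF-1 1 was the highest IGF-1 array for the brighter probe set and the lowest for the dimmer one. Over 19 alternative settings, each array left out among them, the difference stayed between 0.72 and 1.11 with a highest adjusted p of 0.019. It was read at the brighter probe set or, in 1 setting, as the mean of the gene's probe sets.

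Of the 7 genes, read at their brightest tested probe set, 1 rose and 0 fell. Over all 6895 genes tested, 7.05% rose and 8.05% fell by the same rule. Of the 10 member probe sets, 2 rose, both of Srebf2, and 0 fell, where 6.82% of all 11313 tested probe sets rose and 8.28% fell. At an unadjusted p under 0.05, 2 further probe sets, both of Abca1, were lower, with adjusted p of 0.15 and 0.16. The share of all probe sets under that unadjusted p was not counted, so this is no result about Abca1. The share of members called is too small a count to set against these backgrounds.

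**Figure D1:**
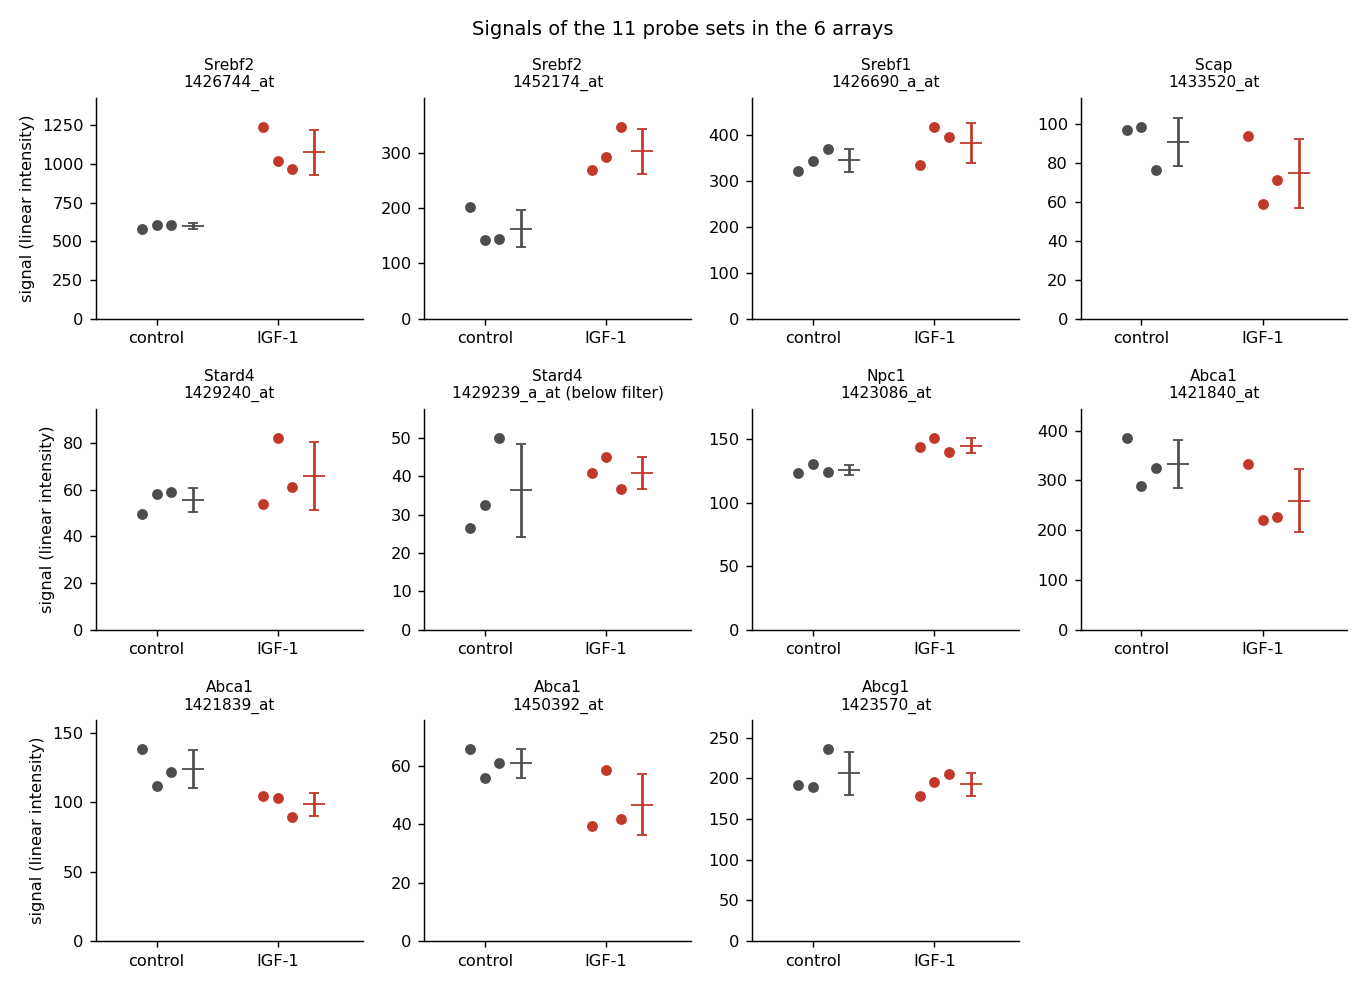
Signal (linear intensity, vertical axis from 0) of the 11 probe sets in the 3 control arrays (grey) and 3 IGF-1 arrays (red), in array order within a group; bars are mean ± SD. Both Srebf2 probe sets are separated between the groups, from 597 to 1075 and from 163 to 303 on average, while Srebf1, Scap, Stard4 and Abcg1 overlap.

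Srebf1, whose products favour genes of fatty acid synthesis, was measured by 1 probe set, 1426690_a_at. It read 321, 345 and 371 in control and 334, 419 and 397 with IGF-1, so the groups overlapped, with IGF-1 1 inside the control range. The difference was 0.14 ± 0.11 (adjusted p = 0.44), with a 95% interval from -0.11 to 0.39. That interval lies below the one of Srebf2, which ran from 0.59 to 1.06. The probe set does not tell the isoforms of Srebf1 apart.

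Because any scaling of an array cancels in a ratio of 2 of its probe sets, apart from the added pseudocount, the log2 ratio of Srebf2 to Srebf1 was also read within each array. It was 0.81, 0.79 and 0.69 in control and 1.84, 1.25 and 1.25 with IGF-1. Every IGF-1 array lay above every control array, with a mean difference of 0.68. This ratio was chosen after the values had been seen, so it is given as a description with no test, and it says nothing of the relative abundance of the pair.

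Scap, the escort that brings both SREBP proteins to the Golgi, read 96.9, 98.6 and 76.4 in control and 93.9, 58.8 and 71.3 with IGF-1. The groups overlapped, and the difference was -0.25 ± 0.17 (adjusted p = 0.37, 95% interval -0.62 to 0.13). Around these factors, 11 genes of SREBP processing were listed, of which 6 were named on the array and all 6 were tested. Of these, 1 rose (Srebf2), 0 fell and 5 did not pass, with a median of -0.08 beside -0.01 for all genes tested. The median was 0.19 with the arrays scaled instead to spiked hybridization controls, a setting that moved the median of all tested genes to 0.26.

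Mbtps1 encodes the site-1 protease that makes the first cut in SREBP. Its brightest probe set read 497, 454 and 444 in control and 386, 376 and 366 with IGF-1. All IGF-1 arrays were lower, yet the difference of -0.29 ± 0.09 missed the threshold (adjusted p = 0.056). It passed with the filter at the 70th percentile and with array weights, and was -0.015 under scaling to the hybridization controls. Another probe set, at -0.47 ± 0.16 (adjusted p = 0.073), missed it too, and the dimmest probe set of the gene had the opposite sign (0.14 ± 0.18). Insig2, the relative of Insig1 that also holds Scap back, had a difference of -0.14 ± 0.11 (adjusted p = 0.43), which was 0.13 under scaling to the hybridization controls.

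On the uptake side, Npc1, which moves cholesterol out of lysosomes after lipoproteins have been taken up, read 123, 131 and 124 in control and 144, 151 and 140 with IGF-1. The groups did not overlap, but the step was small, 0.18 ± 0.11 (adjusted p = 0.28, 95% interval -0.05 to 0.42). Scaling to the hybridization controls brought Npc1 past the threshold (0.44, adjusted p = 0.037), and Srebf1 as well (0.42, adjusted p = 0.048). Under that scaling 1691 of all 6895 genes tested rose. Npc2, its soluble partner in the lysosome, differed by 0.08 ± 0.09 (adjusted p = 0.60), and passed only under that same scaling (0.37, adjusted p = 0.0049). Lipa, the lysosomal lipase that frees cholesterol from its esters, differed by -0.28 ± 0.14 (adjusted p = 0.19). Of 13 listed genes of lipoprotein uptake and endolysosomal export, 9 were named and 7 tested. There was 1 that rose, 0 fell and 6 did not pass. The median was 0.08, and -0.01 with the mean of probe sets per gene. Under scaling to the hybridization controls it was 0.37 beside 0.26 for all genes tested.

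The 1 that rose was Tmem97, a sterol-regulated membrane protein known to bind Npc1. It read 68.2, 98.0 and 95.2 in control and 202, 147 and 179 with IGF-1. With no overlap between the groups, the difference was 0.90 ± 0.16 (adjusted p = 0.005), similar in size to that of Srebf2.

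Stard4, a soluble carrier that shuttles cholesterol between membranes, was dim in both groups. Its tested probe set, 1429240_at, read 49.6, 58.2 and 59.0 in control and 53.8, 82.2 and 61.3 with IGF-1. The groups overlapped, and 1 array, IGF-1 2, was set apart upward (difference 0.18 ± 0.16, adjusted p = 0.51, 95% interval -0.18 to 0.54). The other, 1429239_a_at, read 26.5 to 49.97 in control and 36.6 to 45.0 with IGF-1 and lay below the filter of 53.61 on the mean signal, so it was not tested. Signals this close to the filter limit what could be seen for Stard4.

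Among 20 listed genes of sterol transfer and esterification, 13 were named and 11 tested, and 0 rose, 1 fell and 10 did not pass. The median was -0.14. Under scaling to the hybridization controls it was 0.14 beside 0.26 for all genes tested. The member that fell was Stard5, a relative of Stard4 with a lipid-binding START domain. Its brightest probe set read 872, 958 and 804 in control and 603, 593 and 627 with IGF-1. The difference was -0.52 ± 0.09 (adjusted p = 0.0063), and the other two probe sets of the gene also passed, at -0.69 and -0.55. Scaling to the hybridization controls ended the call (-0.23, adjusted p = 0.19).

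**Figure D2:**
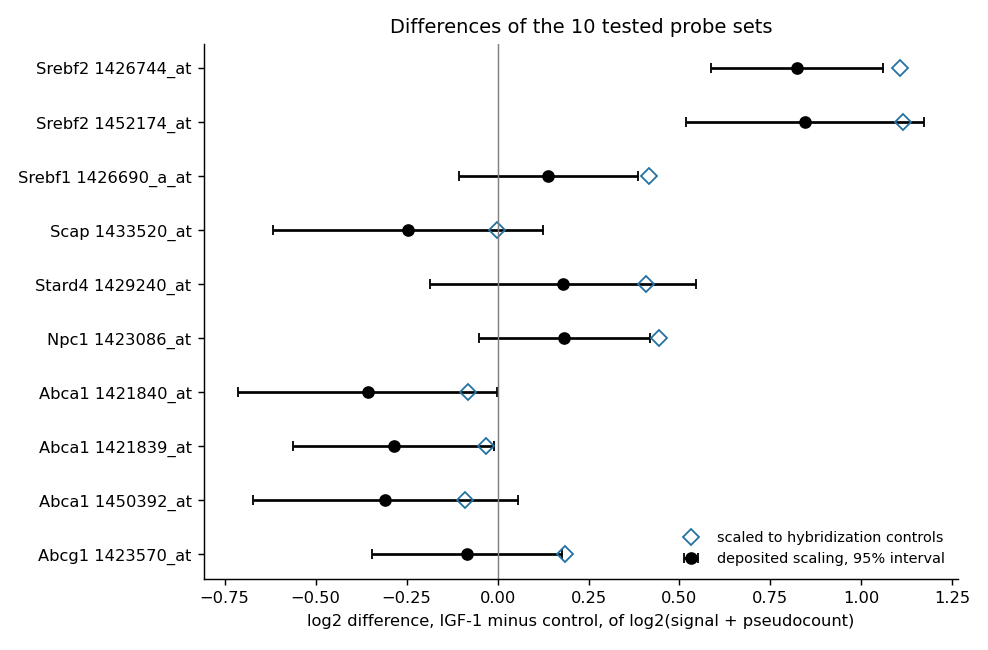
Log2 difference (IGF-1 minus control, horizontal axis) of the 10 tested probe sets, with 95% intervals from limma under the deposited scaling (black) and the value after scaling to hybridization controls (open diamonds). Srebf2 stands at 0.82 and 0.84; the 3 Abca1 probe sets lie between -0.36 and -0.29, and the open diamonds sit to the right of the black points throughout.

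Abca1, which loads cholesterol and phospholipid onto apolipoprotein A-I, was read by 3 probe sets. The brightest, 1421840_at, read 385, 289 and 325 in control and 332, 221 and 226 with IGF-1. In that probe set IGF-1 1 reached into the control range while the other two IGF-1 arrays lay below it. The difference was -0.36 ± 0.16 (adjusted p = 0.16, 95% interval -0.71 to -0.00086). Without IGF-1 1 it was -0.54 and passed the threshold (adjusted p = 0.036), so that 1 array decided the call.

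The second Abca1 probe set, 1421839_at, read 138, 112 and 121 in control and 104, 103 and 89.1 with IGF-1. These groups did not overlap, with a difference of -0.29 ± 0.13 (adjusted p = 0.15). The dimmest, 1450392_at, read 65.9, 56.0 and 61.0 in control and 39.5, 58.8 and 41.8 with IGF-1, and here IGF-1 2 was the array inside the control range (-0.31 ± 0.16, adjusted p = 0.24). In bulk samples such as these, fewer cells of a type and less RNA per cell cannot be told apart. All 3 had the same sign and similar sizes. The 3 differences came to between -0.09 and -0.03 once the hybridization controls set the scale, where the median of all tested probe sets was 0.25.

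Abcg1, which passes cholesterol on to maturing high-density lipoprotein, read 192, 189 and 236 in control and 178, 195 and 205 with IGF-1. The ranges overlapped in part (difference -0.08 ± 0.12, adjusted p = 0.68, 95% interval -0.34 to 0.18). The sign turned when control 3, the highest array, was left out (0.01), and when hybridization controls set the scale (0.18).

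Of 19 listed LXR partners and targets, 15 were named and 10 tested. Of these 0 rose, 1 fell and 9 did not pass, with a median of -0.30 beside -0.01 for all genes. Under scaling to the hybridization controls it was -0.02 beside 0.26 for all genes. By sign in the main fit, 7 were lower and 3 higher. With 8.05% of all genes falling, 1 of 10 is near the background and is no result about LXR targets. The single calls in the SREBP processing, uptake and transfer lists are likewise too few to set apart from the 7.05% of all genes that rose and the 8.05% that fell. Smpdl3a, a phosphodiesterase gene known as an LXR target in macrophages, was the 1 that fell, reading 233, 258 and 318 in control and 166, 184 and 208 with IGF-1 (-0.49 ± 0.13, adjusted p = 0.033). Leaving out control 2, control 3, IGF-1 1 or IGF-1 2 ended its call, with an adjusted p of up to 0.099, as did scaling by the hybridization controls (adjusted p = 0.33).

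Apoe, the lipoprotein that carries cholesterol away from macrophages, read 132, 218 and 263 in control and 95.3, 144 and 158 with IGF-1. The groups overlapped through control 1, and the difference of -0.55 ± 0.23 did not pass (adjusted p = 0.14, and 0.025 at -0.81 without control 1). Mylip, a ubiquitin ligase gene that LXR switches on, had a difference of -0.36 ± 0.15 (adjusted p = 0.14). Rxra, the receptor that pairs with LXR, had one of 0.17 ± 0.13 (adjusted p = 0.43). Nr1h3, which encodes LXR alpha, lay below the filter at 42.5 ± 14.4 in control and 40.3 ± 11.4 with IGF-1.

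Macrophages are a main site of Abca1, Abcg1 and Apoe expression, and some macrophage transcripts differed between the groups too. Of 12 listed macrophage and monocyte markers, all 12 were named and 10 tested, of which 5 fell, 1 rose and 4 did not pass. The number that fell was 1 without control 2, 2 without control 3, IGF-1 1 or IGF-1 2, 2 under scaling to the hybridization controls and 1 with no filter. Their summed signal was 6088 to 8137 in control and 5141 to 7034 with IGF-1, and none was at 0. Csf1r, the macrophage growth factor receptor, read 501, 642 and 869 in control and 265, 310 and 376 with IGF-1 at its brightest probe set (-1.02 ± 0.18, adjusted p = 0.0059), while 2 dimmer probe sets of the gene, at -0.43 and 0.15, did not pass. Cd68, a lysosomal glycoprotein, went the other way (0.41 ± 0.09, adjusted p = 0.012). The summed signal of 10 neutrophil markers was 25913 to 31157 in control and 23842 to 26691 with IGF-1. Of these neutrophil markers 2 fell. The number was 0 without IGF-1 2, 1 without control 2, control 3 or IGF-1 1, 2 without control 1 and 3 without IGF-1 3. Over all genes, 483 fell without control 1 and 375 without IGF-1 3. Under scaling to the hybridization controls 0 of the neutrophil markers fell, and with quantile normalization 4, where 141 and 484 of all genes fell.

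Within each group, Apoe and Csf1r had the same order of arrays, lowest in control 1 and IGF-1 1 and highest in control 3 and IGF-1 3. At their brightest tested probe sets Cd14, Mpeg1, Fcgr1 and Ccr2 shared that order, while Cx3cr1, Adgre1, Lyz2, Msr1 and Cd68 did not. The brightest Abca1 probe set did not follow that order: it was highest in control 1 and IGF-1 1. With the mean log2 level of the tested macrophage marker probe sets as a covariate, a setting added after the data were seen, the LXR median was 0.00018, Smpdl3a no longer passed (-0.21, adjusted p = 0.41), Apoe stood at 0.05 and the brightest Abca1 probe set at -0.62 (adjusted p = 0.082). Srebf2 kept its call in the brighter probe set, and the dimmer one stood at 0.78 (adjusted p = 0.051). This covariate, centred on its mean, was -0.08, 0.19 and 0.45 in control and -0.38, -0.21 and 0.04 with IGF-1. It therefore takes up part of the difference between the groups, and over all genes 212 fell with it against 555 without it. These values cannot tell macrophage transcripts from IGF-1 itself, and the part of such transcripts in the lower LXR targets was not tested.

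**Figure D3:**
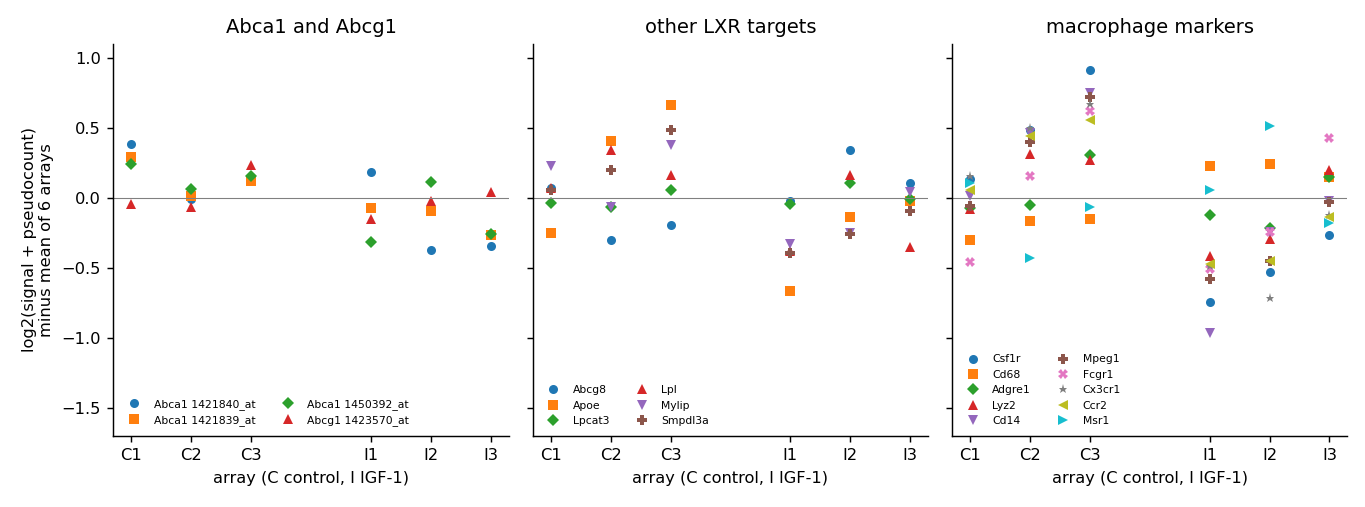
Log2(signal + pseudocount) minus its mean over the 6 arrays (vertical axis) for the efflux pumps, the other tested LXR targets and the 10 tested macrophage markers; C1 to C3 are control arrays and I1 to I3 IGF-1 arrays, and each symbol is 1 probe set. Apoe, Csf1r, Cd14 and Mpeg1 are highest in C3 and lowest in I1, whereas the brightest Abca1 probe set is highest in C1. Not all markers share this: Cx3cr1 and Adgre1 are lowest in I2, Msr1 is highest in I2, and Cd68 is lowest in C1.

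Markers of the labelled cell type were present, but were not the brightest markers listed. The neutrophil markers summed to 25913 to 31157 in control, above the plasma cell markers. S100a9 and Ngp had mean signals of 6872 and 5705, against 4635 for Xbp1, the brightest plasma cell marker. Signals of different probe sets do not give relative abundance, so the share of other cells was not measured. All 10 named plasma cell markers were above the filter, with a summed signal of 13208 to 14520 in control and 12311 to 12911 with IGF-1. Of these 3 fell, 0 rose and 7 did not pass, where 8.05% of all genes tested fell and 7.05% rose. Under scaling to the hybridization controls 1 rose and 0 fell, with a median of 0.10 in place of -0.18. Of all 6895 genes, 1691 rose and 141 fell under that scaling, with a median of 0.26. All 4 named T cell markers and 3 of 4 named erythroid markers lay below the filter, and the fourth erythroid marker did not pass. Their summed signals were 51.7 to 81.7 and 196 to 305 in control, against 51.9 to 65.2 and 190 to 266 with IGF-1. Of 7 listed oxysterol enzymes, 6 were named and 2 tested, and 0 rose and 0 fell.

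Sterol synthesis enzymes, the textbook SREBP-2 targets, formed the list that moved most. Of 15 tested, 12 rose, 0 fell and 3 did not pass, where 7.05% of all genes tested rose. The median was 1.07, with a highest difference of 2.51 for Msmo1, a C4-demethylating oxidase. Hmgcs1, which makes HMG-CoA, differed by 2.04, Dhcr7 by 1.77, Cyp51 by 1.77, Idi1 by 1.69 and Sqle by 1.59. Srebf2, at 0.82, thus stood below the median of these enzymes, while the members for transfer, lysosomal export and efflux had differences from -0.36 to 0.18.

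**Figure D4:**
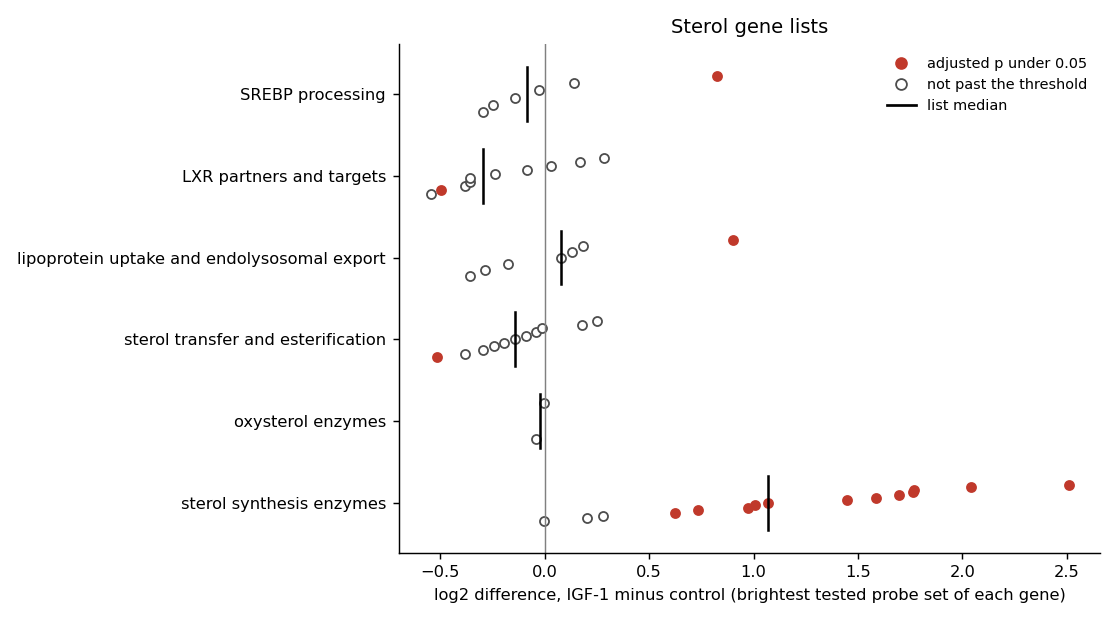
Log2 difference (IGF-1 minus control, horizontal axis) of every tested gene in 6 sterol lists, read at its brightest tested probe set; filled points passed an adjusted p of 0.05 and vertical bars are list medians. The synthesis enzymes have a median of 1.07, and in the other lists Srebf2 (0.82) and Tmem97 (0.90) are the genes that rose.

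The pattern of Srebf2 over the 6 arrays was closest to those of Tcof1, Lmna and Pidd1, by the root-mean-square difference of log2 signals centred on their mean (0.075, 0.079 and 0.088). Tcof1 encodes the nucleolar protein treacle, Lmna the nuclear lamins A and C, and Pidd1 a death-domain protein activated with p53. Their differences were 0.68, 0.74 and 0.71, all past the threshold. With 6 arrays in 2 groups this likeness rests mainly on the size of the step between the groups.

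The Srebf2 gene also hosts a microRNA. By RefSeq coordinates, mmu-miR-33-5p lies inside the Srebf2 gene, at chr15:82198127-82198147 on the plus strand, and it is known to repress Abca1. Its sequence is shown because it is encoded within the member that rose, with the seed (bases 2 to 8) in capitals. Its level was not measured here.
mmu-miR-33-5p: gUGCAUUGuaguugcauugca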

How the data were processed

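Per the submitters' processing notes, the authors made the deposited intensities, 1 linear signal per probe set and array, with MAS5 in GCOS; neither tool's version is given in the sources used here, nor is the target signal. Trimmed means (lowest and highest 2% left out) were near 150 in all 6 arrays, so differences are relative to an equal overall signal. The number of arrays limits the precision. Per the labels' protocols, cDNA was primed with oligo-dT.

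Probe sets (22690 in all) were named from GEO's platform annotation, with 1 symbol for 20380. The 64 control probe sets were left out. Values were log2(signal + 15.57), the 25th percentile of signals, for the 11313 probe sets with a mean signal above 53.61, the median. IGF-1 and control arrays were compared by limma 3.58.1 (lmFit, eBayes with trend, two-sided; R 4.3.3), with Benjamini-Hochberg adjustment over all tested probe sets and a threshold of 0.05. Every adjusted p is from this fit unless a setting is named. A gene was read at its brightest tested probe set. On simulated data with 200 changed of 11313 probe sets, 44.4% of log2 changes of 0.5 and 97.9% of changes of 1 were called, and 7.1% of calls were unchanged probe sets. The main fit called 1709 probe sets, far more than were changed there, so these shares need not hold for it. Members and lists were chosen with earlier results of these data known. Named genes were all members, genes past the threshold in each list (at most 6), fixed genes with a probe set, and the 3 probe sets closest to each member that passed. The alternatives were 2 pseudocounts, 2 filters, 2 scalings, 3 variance settings, probe set choices, the replicate block, each array left out and, added after the data were seen, a macrophage marker covariate. Mbtps2 and Soat1 were not analysed here. Python 3.11.15 and matplotlib 3.10.9 drew the plots.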

Additional observations from a re-analysis of the deposited data

How the results depend on the processing

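With the main settings 1709 probe sets passed the threshold. The number was 946 with no filter, 2986 with scaling to hybridization controls, 652 with the macrophage marker covariate and 897 to 1451 when 1 array was left out. Srebf2 rose under all 19 alternatives, read at its brighter probe set or, in 1 of them, as the mean of its probe sets. Scaling to hybridization controls gave 3 members and 4 member probe sets that rose. Under that scaling 1691 of all 6895 genes and 2740 of all 11313 probe sets rose. The covariate gave 1 member probe set that rose. With 1 array left out, 0 to 1 members and 0 to 1 member probe sets fell, the 1 being Abca1 without IGF-1 1. Abcg1 reversed to 0.18 with scaling to hybridization controls, 0.096 with the covariate and 0.011 without control 3, with a range of -0.14 to 0.011 over the arrays left out.

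Of the SREBP processing genes, 2 passed with the filter at the 70th percentile, with scaling to hybridization controls or with array weights. Of the LXR genes, 0 passed with no filter, with scaling to hybridization controls or with the covariate, and 0 to 3 with 1 array left out (3 without control 1, 0 without control 2 or control 3). Of the uptake genes, 0 passed at the 70th percentile filter, where Tmem97 was too dim to be tested, and 3 with scaling to hybridization controls. Of the transfer genes, 2 passed with the mean of probe sets per gene, and 1 to 2 with 1 array left out (2 without control 2), and with scaling to hybridization controls 1 rose and 0 fell. Apart from the filters, the cause was not tested.

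The labels number the arrays 1 to 3 in both groups. Deviations of same-numbered arrays correlated at 0.12, -0.03 and 0.13, and those of different-numbered arrays at -0.15 to 0.029. The same-numbered values of arrays 1 and 3 were the highest, and that of arrays 2 lay within the range of the others. This does not settle whether the numbers pair the samples. The main fit used no pairing, and the replicate block was run as an alternative. With the replicate block 1732 probe sets passed, 1 member rose, and 2 LXR genes passed, Smpdl3a and Apoe (-0.55, adjusted p = 0.015, where it was 0.14 without the block). Dim signals limit what could be seen for Stard4 and for the dimmest Abca1 probe set.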
